A study of Mus musculus with 10 samples.

Results

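The genes described here are 32 mouse genes of cholesterol and fatty acid synthesis. They were taken as every probe set that the platform annotation gives to exactly 1 of the 32 symbols, on either of the Affymetrix array types MOE430A and MOE430B. Of the 32 genes, 31 had a probe set. MOE430A carried 61 probe sets for 30 of them, out of 22626 probe sets, and MOE430B carried 11 probe sets for 10 of them, out of 22511. The genes were sorted by role into 8 mevalonate genes, 12 squalene and sterol genes, 6 regulators and 6 fatty acid genes. No probe set was named for the mevalonate gene Acat2, and the regulator Insig1 had one on MOE430B alone.

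RNA came from mouse embryos at embryonic day 5.5 with the genetic background B6SJLF1×CerlP-GFP, whose anterior visceral endoderm is fluorescent, and no embryo had been treated. The anterior distal fragment (Ad) was cut to hold that fluorescent endoderm and the epiblast beneath it, and the posterior proximal fragment (Pp) to hold endoderm and epiblast from the far side, up against the extraembryonic boundary. The remaining kind of sample was the whole embryo, with the same background and age. MOE430A was hybridised with Ad replicates 1 and 2, Pp replicates 1 and 2 and 1 whole-embryo sample, and MOE430B with Ad replicates 3 and 4, Pp replicates 3 and 4 and 1 whole-embryo sample. Each fragment mixes endoderm and epiblast, so that in these bulk samples fewer cells of a type and less RNA per cell cannot be told apart. The labels do not say that replicates came from separate embryos, and the p-values then measure only the spread between these samples, which may be technical.

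Cells build cholesterol from acetyl-CoA. The mevalonate enzymes make isoprenoid units and join them into farnesyl diphosphate, squalene synthase commits that product to sterols, and the later enzymes cyclise squalene and trim the ring system to cholesterol. Fatty acid synthesis starts from the same acetyl-CoA. Transcription of both arms is driven by the SREBP factors, encoded by Srebf1 and Srebf2, which the escort protein Scap carries out of the endoplasmic reticulum when sterol is scarce and which Insig proteins hold back when it is plentiful. In the early mouse embryo the visceral endoderm takes up and secretes lipoproteins and so handles lipid for the epiblast beside it.

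The signal is an arbitrary unit and has a true scale within 1 probe set only, so levels are compared between arrays and never between genes. Each gene is given by its brightest probe set. Differences are on the scale of log2(signal + pseudocount), with pseudocounts of 247 on MOE430A and 10.5 on MOE430B, after each array was centred on its median. A change passed the test at a Benjamini-Hochberg adjusted p of 0.05 from limma over all probe sets above the filter on low values. That filter corresponds to 464 signal units for MOE430A and 37.2 for MOE430B, and 29 of the 30 measured genes passed it on MOE430A and 6 of the 10 on MOE430B. The exception on MOE430A was Acaca, the acetyl-CoA carboxylase gene, with signals of 437 and 425 in Ad, 477 and 365 in Pp and 401 in the whole embryo. With 2 arrays against 2, an exact permutation test of a single gene could not give a p below 0.333, so only the fit across all probe sets was used.

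In Ad against Pp on MOE430A, most genes of sterol synthesis had a lower signal in Ad, by small amounts, and none of the 29 tested genes passed the test in limma. Among all 8708 genes tested, 0.0115% passed as lower and 0.195% as higher. At an unadjusted p under 0.05, 13 of the 29 were lower in Ad, where 6.01% of all genes were, and 2 were higher, where 5.74% of all genes were. The Ad arrays lay below both Pp arrays, without overlap on the centred scale, for 20 of the 29 (29.4% of all genes), and above both for 2 (16.4% of all genes). The difference was below 0 for 26 of the 29, against 59.0% of all genes, and 4 of the 26 (Mvk, Mvd, Srebf1 and Scap) were above 0 without centring. Over all 30 measured members the median log2 difference was -0.17, beside -0.04 over all 12393 genes measured. The members were chosen with earlier results of these data known, so these shares and medians describe the set and are no test of it.

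**Figure D1:**
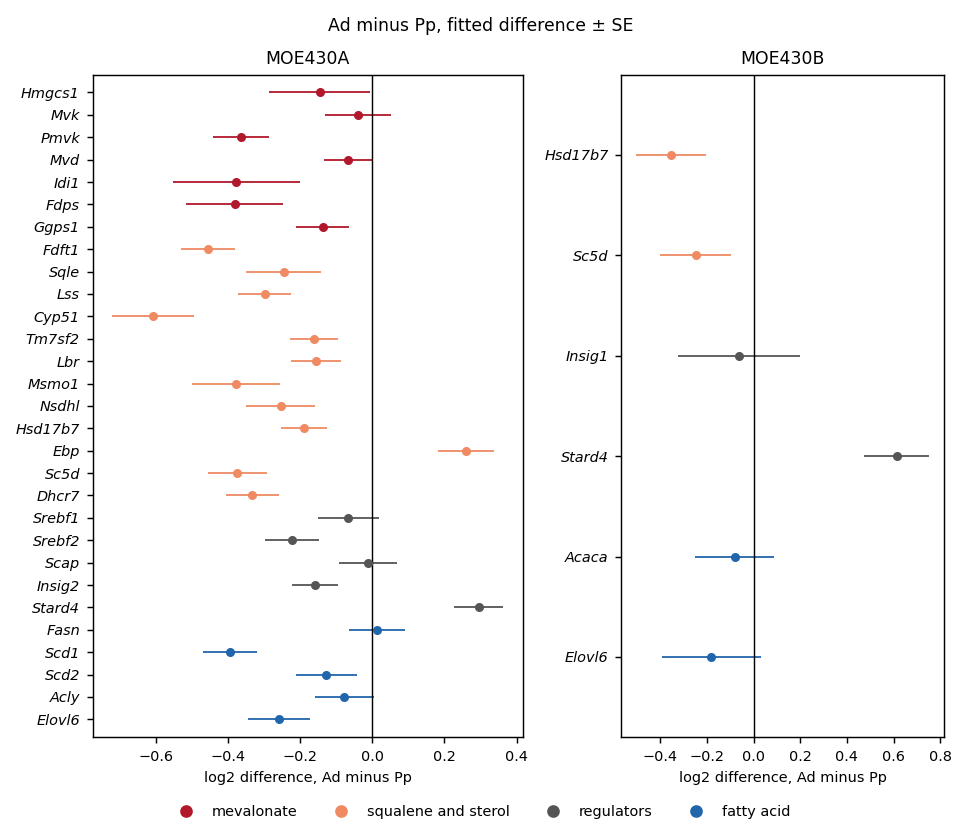
Fitted log2 differences, Ad minus Pp, for each gene above the filter on MOE430A (left) and MOE430B (right), with points for the estimate, bars for its standard error and colours for the 4 roles. On MOE430A 26 of the 29 points lie left of 0, and Stard4 and Ebp lie clearly right of it. Without centring Mvk, Mvd, Srebf1 and Scap also lie right of 0.

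**Figure D2:**
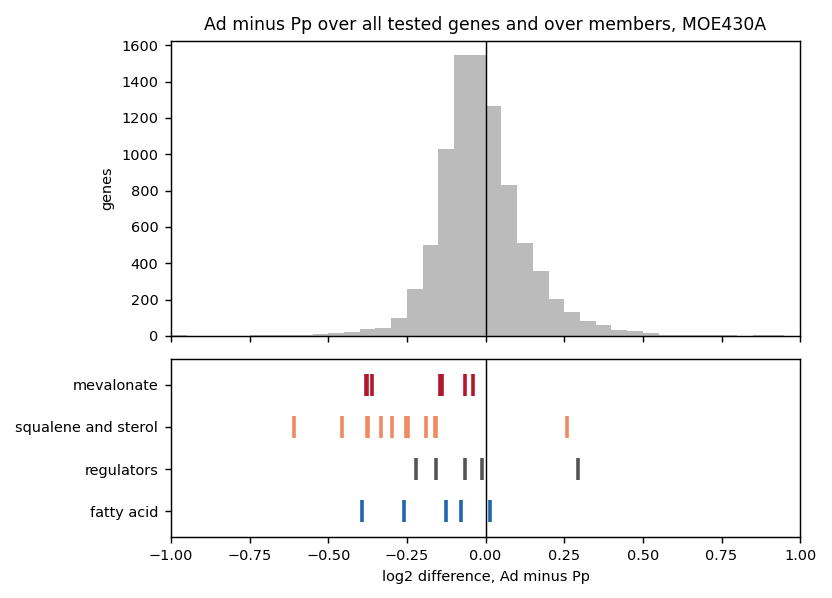
Upper panel, number of genes (y axis) by log2 difference, Ad minus Pp (x axis), for the tested genes of MOE430A within 1 log2 unit of 0. Lower panel, the same difference for each of the 29 member genes, 1 tick a gene, in rows by role. The ticks of the squalene and sterol row have a median of -0.28, and the median of all tested genes is -0.03.

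Among the roles on MOE430A, the squalene and sterol genes had the median farthest from 0, and the ranges of the roles overlapped. All 7 mevalonate genes had a difference below 0, with a median of -0.14, and 11 of the 12 squalene and sterol genes did, with a median of -0.28. The 5 regulators on MOE430A had a median of -0.07 and the 5 fatty acid genes above the filter one of -0.13. Over the same array type the median of all tested genes was -0.03. No difference between roles was tested.

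The promoters of the mevalonate and sterol genes with the widest differences show which known regulatory letters stand before these genes. RefSeq windows of assembly GRCm38.p6 were searched over the 250 bases before the gene start, on both strands, for TCACNCCAC (the sterol regulatory element, SRE), for the shorter form TCACNNCA, which contains every match of the first, for the CCAAT box and for the GC box GGGCGG. The shorter form was added after the Cyp51 sequence had been read. A window was used for 26 of the 32 genes, the others being Fdps, Fdft1, Sqle, Stard4, Scd1 and Scd2. A gene with several starts was counted when any of its windows held a match. Printed here are the stretches with matches for the 5 such genes with the widest Ad minus Pp difference, and for Hmgcs1, which was added after the search because no other member held the full SRE. Capitals mark the matches, and all letters read 5′ to 3′ along the gene's strand.
Cyp51: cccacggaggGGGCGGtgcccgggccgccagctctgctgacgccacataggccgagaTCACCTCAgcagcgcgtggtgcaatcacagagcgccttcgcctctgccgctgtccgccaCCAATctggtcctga
Idi1: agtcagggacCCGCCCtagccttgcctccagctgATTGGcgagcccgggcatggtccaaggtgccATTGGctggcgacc
Msmo1: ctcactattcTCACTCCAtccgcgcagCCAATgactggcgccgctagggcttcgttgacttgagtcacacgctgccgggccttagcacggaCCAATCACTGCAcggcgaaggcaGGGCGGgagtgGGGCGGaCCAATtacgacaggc
Sc5d: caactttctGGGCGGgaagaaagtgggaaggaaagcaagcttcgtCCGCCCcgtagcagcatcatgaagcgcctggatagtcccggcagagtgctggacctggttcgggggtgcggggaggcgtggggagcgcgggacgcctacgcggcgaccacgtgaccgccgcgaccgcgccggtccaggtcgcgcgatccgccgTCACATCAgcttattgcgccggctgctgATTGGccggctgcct
Pmvk: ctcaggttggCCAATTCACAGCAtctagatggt
Hmgcs1: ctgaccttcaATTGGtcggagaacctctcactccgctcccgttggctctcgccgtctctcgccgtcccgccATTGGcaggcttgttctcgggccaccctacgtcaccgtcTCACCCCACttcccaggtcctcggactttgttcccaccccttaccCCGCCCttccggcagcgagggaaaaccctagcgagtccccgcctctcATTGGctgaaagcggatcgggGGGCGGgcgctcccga

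The stretches lie at chr5:4104712-4104842 on the minus strand for Cyp51, chr13:8885527-8885605 on the plus strand for Idi1 and chr8:64733619-64733765 on the minus strand for Msmo1. That of Sc5d lies at chr9:42264310-42264550 on the minus strand, that of Pmvk at chr3:89454395-89454427 on the plus strand and that of Hmgcs1 at chr13:119690104-119690342 on the plus strand. All of them lie upstream of the annotated gene start. In Msmo1 a CCAAT box and a short SRE share 1 base, and in Pmvk they adjoin without sharing one, so their capitals run together.

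The full SRE was found for 1 of the 26 members, 3.85%, against 1.22% of all 27025 genes with a window and 1.33% of the genes above the MOE430A filter. The short form was found for 9 of 26, 34.6%, against 13% of all genes and 11.5% of genes above the filter. This form was added after the Cyp51 sequence had been read, and Cyp51 is among the 9, so that count is not a test. The CCAAT box, bound by the factor NF-Y, was found for 21 of 26, 80.8%, against 37.5% of all genes and 40.6% of genes above the filter. Among the roles it stood before all 10 squalene and sterol genes with a window, 6 of 7 mevalonate genes, 4 of 5 regulators and 1 of 4 fatty acid genes. The GC box, bound by Sp1-like factors, was found for 21 of 26, against 63% of genes above the filter and 35.4% of all genes. A match describes these letters and is not a shown binding site, and its absence says only that the letters are not in the window.

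**Figure D3:**
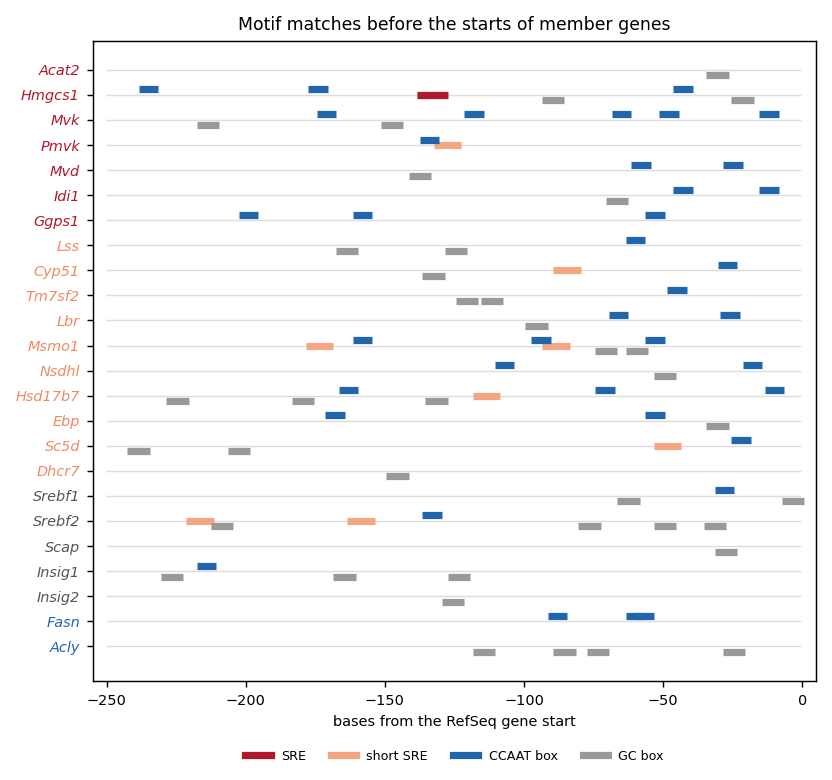
Position of motif matches, in bases before the annotated gene start (x axis), for the member genes with at least 1 match (rows, coloured by role). Where a gene has several windows, the map shows the one at the lowest coordinate that holds a match. The only full SRE drawn is that of Hmgcs1, and most sterol genes carry a CCAAT box and a GC box.

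Among the mevalonate genes, the 3 widest differences were those of Fdps, Idi1 and Pmvk. Fdps, the farnesyl diphosphate synthase gene, had signals of 2383 and 3051 in Ad, 3703 and 3140 in Pp and 2230 in the whole embryo. Its Ad and Pp arrays did not overlap, but by a narrow gap, and the log2 difference was -0.38 ± 0.13 (SE; adjusted p = 0.39). Idi1, the isopentenyl diphosphate isomerase gene, had 1874 and 2405 in Ad, 3193 and 2259 in Pp and 2274 in the whole embryo. One Pp array of Idi1 stood above the other 4 arrays while the other Pp array lay between the Ad arrays, and the difference of -0.38 had a standard error of 0.18 (adjusted p = 0.46). Its other probe set above the filter lay at -0.10 ± 0.17 (SE). Pmvk, the phosphomevalonate kinase gene, had 622 and 650 in Ad, 789 and 884 in Pp and 913 in the whole embryo. Its groups lay well apart for their spread, with a difference of -0.36 ± 0.08 (SE; adjusted p = 0.23), and both Ad arrays were the lowest of the 5.

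The other mevalonate genes lay nearer to 0. Hmgcs1, the HMG-CoA synthase gene, had signals of 5694 and 6296 in Ad, 7332 and 5456 in Pp and 6262 in the whole embryo. By deposited signal its Pp arrays enclosed both Ad arrays. On the centred scale Ad replicate 1 lay below both Pp arrays and Ad replicate 2 between them. The difference of -0.14 was 0.053 without Pp replicate 1. Its 3 dimmer probe sets lay between -0.23 and -0.18, each with overlapping groups. Ggps1, the geranylgeranyl diphosphate synthase gene, had 617 and 593 in Ad, 689 and 606 in Pp and 572 in the whole embryo. Its difference was -0.14 ± 0.07 (SE), and its second probe set above the filter overlapped between groups at -0.04 ± 0.08 (SE). Mvk and Mvd, the mevalonate kinase and decarboxylase genes, had differences of -0.04 and -0.07, both within about 1 standard error of 0. Without centring they were 0.029 and 0.0020. A dimmer Mvd probe set had a wider difference of -0.22 ± 0.06 (SE).

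On MOE430A the squalene and sterol genes Cyp51 and Fdft1 had the widest differences of the set. Cyp51, the lanosterol 14-demethylase gene whose promoter opens the sequences above, had signals of 1082 and 1072 in Ad, 1912 and 1467 in Pp and 1489 in the whole embryo. The Ad arrays were almost equal and lay below all 3 others, with a log2 difference of -0.61 ± 0.11 (SE), or 1.52-fold lower in Ad (adjusted p = 0.19). Fdft1, the squalene synthase gene, had 1535 and 1572 in Ad, 2222 and 2000 in Pp and 1431 in the whole embryo. Here the whole embryo lay near Ad and the Pp arrays stood apart, and the difference was -0.46 ± 0.07 (SE; 1.37-fold lower in Ad, adjusted p = 0.14). Msmo1, the sterol C4-methyl oxidase gene, had 1013 and 1338 in Ad, 1554 and 1454 in Pp and 1222 in the whole embryo. The dimmer probe sets above the filter went the same way, at -0.18 for Cyp51 and at -0.23 and -0.19 for Fdft1. The Ad replicates of Msmo1 differed more from each other than its Pp replicates did, and its difference of -0.38 had a standard error of 0.12 (adjusted p = 0.37).

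**Figure D4:**
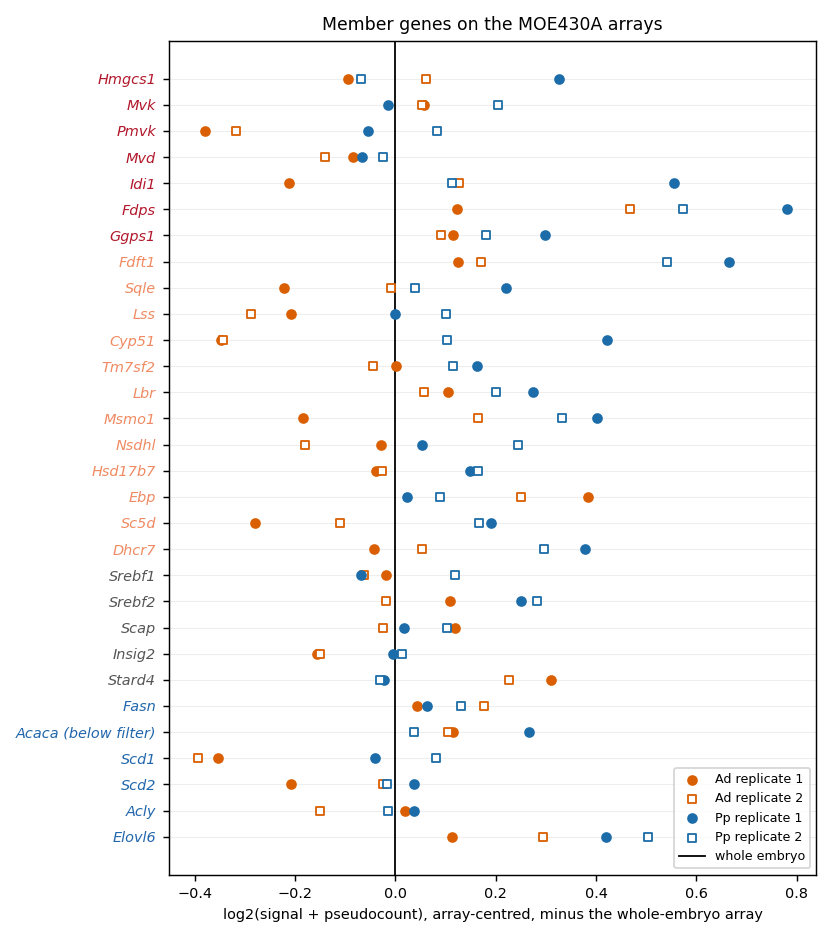
Signal of each member gene on each MOE430A fragment array, as centred log2(signal + pseudocount) minus the whole-embryo array (x axis), with 1 row a gene and gene names coloured by role. Orange symbols are Ad replicates, blue symbols Pp replicates, and the vertical line is the whole embryo. For Cyp51, Fdft1, Sc5d and Dhcr7 both orange symbols lie left of both blue ones, and for Stard4 and Ebp they lie right of them.

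The last steps towards cholesterol showed the same order of arrays for Sc5d and Dhcr7. Sc5d, the lathosterol oxidase gene, had signals of 866 and 989 in Ad, 1220 and 1184 in Pp and 1138 in the whole embryo, a difference of -0.37 ± 0.08 (SE; adjusted p = 0.23). Its second probe set above the filter went the other way, at 0.08 ± 0.07 (SE), with 664 and 583 in Ad, 547 and 523 in Pp and 732 in the whole embryo. The 2 probe sets of Sc5d therefore gave no common direction. Dhcr7, the final reductase gene, had 943 and 1009 in Ad, 1269 and 1174 in Pp and 1010 in the whole embryo, a difference of -0.33 ± 0.07 (SE; adjusted p = 0.25). Both Pp arrays of Dhcr7 lay above all 3 other arrays.

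Lss, the lanosterol synthase gene, had a difference of -0.30 ± 0.07 (SE), with signals of 1907 and 1767 in Ad, 2122 and 2270 in Pp and 2305 in the whole embryo. Nsdhl, Sqle and Hsd17b7, which encode a sterol dehydrogenase, squalene epoxidase and a 3-keto reductase, had differences of -0.25, -0.25 and -0.19. Both C14-reductase genes, Tm7sf2 and Lbr, had differences of -0.16. The Ad and Pp arrays did not overlap for any of these 6 genes on the centred scale, and the adjusted p was 0.29 for Lss and 0.38 to 0.45 for the other 5. Lbr also encodes a nuclear lamina receptor.

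Ebp stood alone among the squalene and sterol genes with a higher signal in Ad. Ebp encodes the sterol delta8-delta7 isomerase and had signals of 3886 and 3477 in Ad, 2821 and 2933 in Pp and 3005 in the whole embryo. Both Ad arrays were the highest of the 5, with a difference of 0.26 ± 0.08 (SE), or 1.20-fold (adjusted p = 0.34). It has 1 probe set, so no other measurement of it bears on the direction.

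The regulators did not share a direction. Srebf2, the SREBP gene tied most to sterol synthesis, had signals of 1730 and 1541 in Ad, 1831 and 1856 in Pp and 1634 in the whole embryo, a difference of -0.22 ± 0.07 (SE; adjusted p = 0.37). A second Srebf2 probe set went the same way in Ad against Pp, at -0.31 ± 0.08 (SE). Srebf1, tied more to fatty acid synthesis, had 2068 and 1973 in Ad, 1886 and 2156 in Pp and 2161 in the whole embryo. Its groups overlapped at -0.07 ± 0.08 (SE), and without centring the difference was 0.0021. Scap had 1234 and 1078 in Ad, 1067 and 1134 in Pp and 1152 in the whole embryo, with a difference of -0.01 ± 0.08 (SE) that was above 0 without centring and with cyclic loess. Insig2 had 829 and 820 in Ad, 892 and 894 in Pp and 983 in the whole embryo, a difference of -0.16 ± 0.06 (SE; adjusted p = 0.42). A second Insig2 probe set above the filter overlapped between groups at -0.04 ± 0.07 (SE), and a dimmer one below the filter lay at 0.08.

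Stard4 was the regulator with a higher signal in Ad, on both array types. Stard4 is a cytosolic sterol carrier and a known SREBP target. On MOE430A it had signals of 1072 and 982 in Ad, 749 and 736 in Pp and 844 in the whole embryo, a log2 difference of 0.29 ± 0.07 (SE), or 1.23-fold (adjusted p = 0.26). A second MOE430A probe set gave 774 and 796 in Ad, 631 and 624 in Pp and 652 in the whole embryo, at 0.17 ± 0.07 (SE). On MOE430B it had 1748 and 1715 in Ad, 991 and 1157 in Pp and 1348 in the whole embryo, a difference of 0.61 ± 0.14 (SE), or 1.53-fold (adjusted p = 0.36). In all 3 probe sets both Ad arrays lay above both Pp arrays, and the deposited signal of the whole embryo lay between them.

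The labels do not say whether the MOE430B arrays received RNA of the samples put on MOE430A. Across the 100 probe sets carried by both array types, the deviations of each MOE430B array from its probe set means correlated best with those of the MOE430A array of the same kind and order. Those 5 correlations were 0.848 and 0.806 for Ad, 0.412 and 0.576 for Pp and 0.918 for the whole embryo. Probe sets are not independent points, so no p is attached. The MOE430B values are therefore not counted as separate replicates here.

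Fatty acid genes on MOE430A were led by the desaturase gene Scd1. It had signals of 2885 and 2764 in Ad, 3459 and 3747 in Pp and 3859 in the whole embryo, a difference of -0.39 ± 0.07 (SE), or 1.31-fold lower in Ad (adjusted p = 0.19). Its second probe set went the same way at -0.31 ± 0.09 (SE). Elovl6, which elongates palmitate, had 1973 and 2240 in Ad, 2368 and 2498 in Pp and 1860 in the whole embryo, a difference of -0.26 ± 0.09 (SE; adjusted p = 0.37). A dimmer Elovl6 probe set overlapped between groups at 0.20 ± 0.18 (SE).

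The remaining fatty acid genes lay nearer to 0. Scd2, the desaturase gene common in embryonic tissue, had signals of 6521 and 7349 in Ad, 7396 and 7049 in Pp and 7774 in the whole embryo, a difference of -0.13 ± 0.08 (SE). Its second probe set above the filter lay at -0.17 ± 0.08 (SE). For both probe sets Ad lay below Pp without overlap on the centred scale. Fasn, the fatty acid synthase gene, had 1621 and 1779 in Ad, 1556 and 1624 in Pp and 1613 in the whole embryo, a difference of 0.01 ± 0.08 (SE). Acly, which makes cytosolic acetyl-CoA from citrate, had a difference of -0.08 ± 0.08 (SE), and its 3 dimmer probe sets above the filter ran between -0.24 and 0.05. The groups of Fasn and Acly overlapped.

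MOE430B added little for the other genes. None of its 6 tested genes passed the test in limma (0.173% of the 6921 genes tested did), and 1, Stard4, had an unadjusted p under 0.05 (10.7% of all genes). Both Ad arrays lay below both Pp arrays for 2 of the 6, Hsd17b7 and Sc5d (23.6% of all genes), and above them for Stard4 (20.1% of all genes). The difference was below 0 for 5 of 6, against 52.5% of all genes. Over all 10 genes measured there the median was -0.07, beside -0.02 over all 9607 genes, and it was above 0 without centring.

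Several of those genes repeat a gene of MOE430A with another probe set. Sc5d had signals of 72.6 and 61.8 in Ad, 80.3 and 73.4 in Pp and 63.3 in the whole embryo, a difference of -0.25 ± 0.15 (SE). For Hsd17b7 the brighter probe set had 361 and 305 in Ad, 403 and 406 in Pp and 446 in the whole embryo, at -0.35 ± 0.15 (SE), and the dimmer one went the other way at 0.19 ± 0.14 (SE). Insig1, measured on MOE430B alone, encodes the sterol-sensing retention protein and is a classical SREBP target, and it had 1202 and 1680 in Ad, 1092 and 1814 in Pp and 1918 in the whole embryo. Its replicates differed more than its groups, and the difference of -0.06 ± 0.26 (SE) had no stable sign when an array was left out. The brightest MOE430B probe sets of Hmgcs1, Msmo1, Scap and Acly lay below the filter, with signals between 1 and 41.9 on the fragment arrays.

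Replicates of a fragment also differed on MOE430A. For 10 of the 29 genes (34.5%, against 26.9% of all genes tested) Ad replicate 1 lay below Ad replicate 2 while Pp replicate 1 lay above Pp replicate 2, and these included Hmgcs1, Idi1, Fdps, Sqle, Msmo1 and Dhcr7. Idi1 is the clearest case, with the values given above. Leaving out 1 array changed the calls. Without Pp replicate 1, 7 genes passed, all lower in Ad (Pmvk, Fdft1, Lss, Cyp51, Nsdhl, Sc5d and Scd1), and without Pp replicate 2, 6 passed, all lower in Ad (Idi1, Fdps, Fdft1, Cyp51, Sc5d and Dhcr7). Without either Ad array 0 passed. Over all probe sets 23 passed with every array, 811 and 505 without Pp replicates 1 and 2, and 1 and 3 without Ad replicates 1 and 2, since each such fit takes its within-group spread from the 1 pair left.

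Markers of the other tissues show what else differed between the fragments. Of 10 anterior visceral endoderm genes on MOE430A, 9 were above the filter and 5 passed the limma test as higher in Ad (0.195% of all genes). The filter used the mean over all arrays, and Hesx1, 1 of the 5, had signals of 406 and 409 in Pp, under its 464 units. The summed signal of all 10 genes was 26623 and 21497 in Ad, 8326 and 7644 in Pp and 9795 in the whole embryo. That of 11 general visceral endoderm genes was 60898 and 53739 in Ad, 47892 and 57427 in Pp and 50117 in the whole embryo. Such a sum is of raw signals, is led by its brightest probe sets and can hide opposed genes. Of these 11 genes 6 had an Ad minus Pp difference below 0 (59.0% of all genes did), and 0 passed the limma test. They ran from -0.84 for Sox17 to 0.55 for Rbp4, so like sums do not show like amounts of visceral endoderm. For 10 epiblast genes the summed signal was 42157 and 42257 in Ad, 44129 and 39801 in Pp and 30131 in the whole embryo. Extraembryonic ectoderm genes, 12 of them, summed to 14381 and 14043 in Ad, 13376 and 20485 in Pp and 23019 in the whole embryo, so that Pp replicate 2 stood above the other fragment arrays. The 14 decidua and blood genes summed to 8050 and 10980 in Ad and to 8337 and 7840 in Pp. Ad replicate 2 was thus the highest fragment array for them. The part of these tissues in the sterol values was not tested. Without Pp replicate 2 the median over the members was -0.20, beside -0.17 with every array. Leaving out an array takes away everything particular to it, so this value was no test of tissue.

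On MOE430A 1 gene of the set differed between the fragments and the whole embryo past the test. The mean of Ad and Pp was set against the single whole-embryo array, which was assumed to vary like the fragments. Of the 29 genes 1, Fdft1, rose in the fragments (4.54% of all genes passed as higher) and 0 fell (5.70% of all genes passed as lower). At an unadjusted p under 0.05, 3 were higher, against 15.5% of all genes, and 0 were lower, against 11.8%. All 4 fragment arrays lay above the whole embryo for 7 of the 29 (37.3% of all genes) and below it for 1 (24.1%). The difference was below 0 for 10 of the 29, against 40.7% of all genes, and the median over the 30 measured members was 0.06, beside 0.05 over all genes measured.

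Fdft1 averaged 1832 ± 334 (SD, n = 4) in the fragments and had a signal of 1431 in the whole embryo, a log2 difference of 0.38 ± 0.08 (SE), or 1.30-fold (adjusted p = 0.047). Its Pp arrays lay farther above the whole embryo than its Ad arrays did, and 2 dimmer probe sets above the filter had differences of 0.45 and 0.22. The adjusted p was 0.051 with quantile normalization, 0.093 with the replicate block and 0.14 and 0.18 without Ad replicates 1 and 2, so the call rested on the setting. Fdps had a wider difference, 0.49 ± 0.15 (SE), that did not pass the test (adjusted p = 0.11), and Elovl6 one of 0.33 ± 0.10 (SE; adjusted p = 0.091). Both lay above the whole embryo on all 4 fragment arrays. The widest differences below 0 were those of Scd1 at -0.18 ± 0.08 (SE) and Pmvk at -0.17 ± 0.09 (SE).

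**Figure D5:**
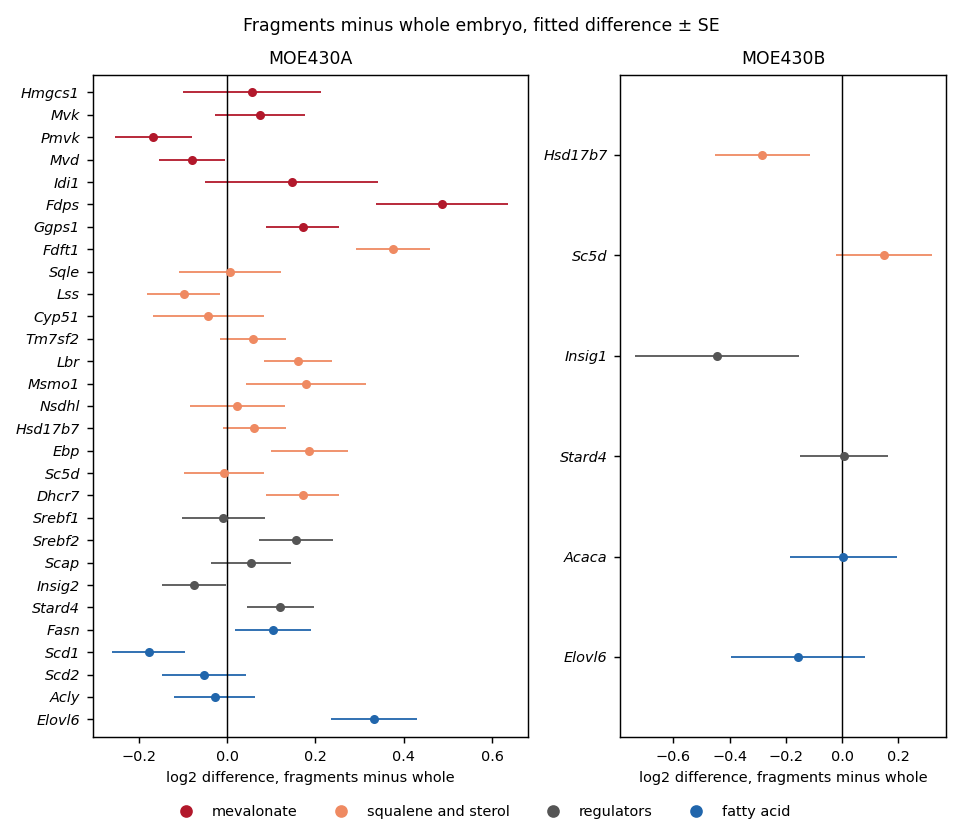
Fitted log2 differences, fragments minus whole embryo, for each gene above the filter on MOE430A (left) and MOE430B (right), with points for the estimate, bars for its standard error and colours for the 4 roles. Fdps, Fdft1 and Elovl6 lie farthest right of 0 on MOE430A, and Fdft1 alone passed the test.

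Among the regulators the differences from the whole embryo were 0.16 for Srebf2, 0.12 for Stard4, 0.05 for Scap, -0.01 for Srebf1 and -0.07 for Insig2, none past the test. The dimmer Srebf2 probe set lay at -0.32 and so opposed the brighter one. The second Insig2 probe set above the filter had a wider difference, -0.21 ± 0.08 (SE), and did not pass (adjusted p = 0.15). On MOE430B 0 of 6 genes passed the limma test (3.05% of all genes did), and 0 had an unadjusted p under 0.05 (18.2% of all genes did). Insig1 had the widest difference there, -0.44 ± 0.29 (SE), and all 4 of its fragment arrays lay below the whole embryo.

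The whole-embryo array differed from the fragments in markers of maternal tissue and of embryonic tissues. The summed signal of 14 decidua and blood genes on MOE430A was 8050 and 10980 in Ad, 8337 and 7840 in Pp and 48802 in the whole embryo. Of the 10 above the filter, 7 passed the limma test as lower in the fragments (5.70% of all genes). The filter used the mean over all arrays, so a gene high in the whole embryo alone could pass it through that array. Col1a1, 1 of the 7, had 307 and 369 in Ad, 353 and 290 in Pp and 4360 in the whole embryo. This count is therefore no test of maternal tissue. Ctla2a, listed here as a decidual gene, had signals of 275 and 1646 in Ad, 482 and 497 in Pp and 11198 in the whole embryo. Hba-a1, Esr1 and Des of this list went the other way on MOE430A, at 0.18, 0.15 and 0.12 in fragments minus whole embryo. Hba-a1 was below the filter, and the MOE430B probe set of Esr1 lay at -5.1. For the Actb controls, the signal at the 3' end over that at the 5' end was 3.69 to 4.50 on the fragment arrays and 5.87 on the whole-embryo array, and for the Gapdh controls it was 1.40 to 1.57 and 1.60. Embryonic markers above the filter differed as well. Of 9 anterior visceral endoderm genes 6 passed the limma test as higher in the fragments, as did 5 of 8 epiblast genes. So did 2 of 11 visceral endoderm genes (4.54% of all genes). Of 12 extraembryonic ectoderm genes 2 passed as lower (5.70% of all genes). These counts have the same filter limit. The part of maternal tissue, embryonic tissue or RNA quality in the values of the set was not tested.

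A pair of further lists covers genes around the pathway. Of 25 other genes of acetyl-CoA supply, SREBP processing and fatty acid handling, 17 were above the filter on MOE430A. In Ad against Pp 0 of the 17 passed limma's test (0.0115% of all genes passed as lower and 0.195% as higher). Their median was -0.04, with 10 below 0 and 7 above, where 59.0% of all genes were below. At an unadjusted p under 0.05, 2 were lower (6.01% of all genes) and 0 higher (5.74%). The widest differences were those of the elongase gene Elovl1 at -0.40, the desaturase gene Fads2 at -0.22 and the malic enzyme gene Me1 at -0.17. On MOE430B 0 of 7 passed the limma test (0.173% of all genes did). There, at an unadjusted p under 0.05, 2 were lower (5.20% of all genes) and 1 higher (5.46%). The widest were the acyl-CoA synthetase gene Acsl3 at -0.66 and the mitochondrial citrate carrier gene Slc25a1 at -0.48. Mbtps2, a protease that releases SREBP, came next at 0.36. Acsl3 had signals of 624 and 655 in Ad, 854 and 1088 in Pp and 910 in the whole embryo. Slc25a1 had 3083 and 3143 in Ad, 3930 and 4324 in Pp and 3217 in the whole embryo. Neither gene's groups overlapped.

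Of 19 genes of sterol uptake, movement and efflux, 16 were above the filter on MOE430A, where 1 fell and 2 rose in the fragments against the whole embryo (5.70% of all genes passed as lower and 4.54% as higher). Of the 16, 0 passed the limma test in Ad against Pp, with 8 on each side of 0 (59.0% of all genes were below). In that comparison 1 was lower (6.01% of all genes) and 1 higher (5.74%) at an unadjusted p under 0.05. The widest there were Mylip, an E3 ligase that degrades the LDL receptor, at 0.39, the endocytic receptor gene Lrp2 at -0.27 and the endosomal sterol transporter gene Npc1 at 0.25. In fragments against the whole embryo the efflux transporter gene Abca1 fell to 534 and 609 in Ad and 525 and 411 in Pp, against 2806 in the whole embryo, a difference of -1.92 ± 0.11 (SE; adjusted p = 7.2e-04). Apoa1, the main HDL apolipoprotein gene, rose by 0.80 ± 0.16 (SE; adjusted p = 0.037) and Mylip by 0.43 ± 0.09 (SE; adjusted p = 0.042). On MOE430B Npc2, the lysosomal sterol carrier gene, fell by 1.30 (adjusted p = 0.023), while its MOE430A probe set had a difference of -0.26 ± 0.08 (SE) that did not pass (adjusted p = 0.095). From the list of other pathway genes Cyb5r3, a reductase that feeds electrons to desaturases, fell by 0.67 on MOE430A (adjusted p = 0.0185), and as the mean of its probe sets the difference was -0.28 (adjusted p = 0.076). The other wide differences from the whole embryo on MOE430A did not pass: the HDL receptor gene Scarb1 had -0.48 (adjusted p = 0.25), Me1 -0.49 (adjusted p = 0.083) and Elovl1 -0.33 (adjusted p = 0.25). Without Pp replicate 2 the differences were -0.62 for Scarb1, -0.54 for Me1 and -0.41 for Elovl1, and without Pp replicate 1 that of Me1 was -0.45. Such fits take their within-group spread from the Ad pair alone, so passing in them is not read as a result. With every array, Me1 passed as the mean of its probe sets, at -0.63 (adjusted p = 0.029 in limma). On MOE430B the other wide differences from the whole embryo were Elovl1 at -0.58, the acetyl-CoA synthetase gene Acss2 at 0.32 and the mitochondrial enoyl reductase gene Mecr at 0.29. The apolipoprotein gene Apob at 0.23 and Lrp2 at 0.16 came next, and 0 of these 5 passed. Without Pp replicate 4 the difference of Elovl1 was -0.85. In Ad against Pp on MOE430B the widest of the sterol movement genes were Lrp2 at -0.22, Npc2 at 0.19 and the efflux transporter gene Abcg1 at 0.01, and 0 passed. Abcg1 changed sign with an array left out, to -0.12 without Pp replicate 3 and -0.05 without Ad replicate 4. The call of Abca1 held under every alternative in which it passed the filter on low values. The calls of Apoa1, Mylip, Cyb5r3 and Npc2 were each lost under at least 1 alternative, leaving out an Ad array among them.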

How the data were processed

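RNA of 10 samples was linearly amplified and hybridised to 5 MOE430A and 5 MOE430B arrays. The authors deposited 1 linear intensity per probe set. Per the submitters' processing notes MAS5 was used, for which the sources used here give no version, scaling target or floor. Deposited array medians ran from 590 to 644 (MOE430A) and from 56.8 to 61.0 (MOE430B). Precision is limited by how many arrays there are.

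The array types were fitted separately with limma 3.58.1 under R 4.3.3 (lmFit and eBayes, 2 residual degrees of freedom), without the 64 control probe sets. The pseudocount was the 20th percentile of all values, and the filter on low values kept probe sets whose mean log2 signal exceeded the 40th percentile, 13575 on MOE430A and 13506 on MOE430B. Arrays were centred on their median over kept probe sets. The 3 kinds of sample were fitted together, and adjustment ran over all kept probe sets, two-sided. Non-overlap between groups was read on the centred log2 scale. The script was tested on simulated data. Sequences come from RefSeq, and names from the platform annotation.

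The members and lists were chosen with earlier results of these data known. By rule, every-array values are given for members past the threshold, for the 3 widest differences of each role on MOE430A and for the regulators. Genes of the other lists are named when past the threshold or among the 3 widest of their list in a comparison. Array values of further members and of some genes of the other lists and markers were printed after they were seen. The alternatives were other scalings, pseudocounts and filters, an intensity trend, the mean over a gene's probe sets, a replicate block and leaving out each fragment array. Same-numbered samples were not treated as pairs: the differences between the replicates of Ad and of Pp correlated at -0.242 on MOE430A and -0.0392 on MOE430B across probe sets.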

Additional observations from a re-analysis of the deposited data

How the results depend on the processing

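In Ad against Pp no member passed under any setting that kept all arrays, on either array type, and leaving out an array gave 0 to 7 members on MOE430A. The MOE430A median over the members stayed below 0 throughout, at -0.11 without centring and -0.22 without a pseudocount. The MOE430B median was 0.0043 without centring and ran between -0.063 and 0.060 with an array left out. The count of members called in fragments against the whole embryo on MOE430A was 0 without centring, with quantile normalization, cyclic loess, no pseudocount, no filter, an intensity trend, a filter at the 60th percentile or the replicate block. It was 2 with a crossed replicate block, chosen after seeing the data, and 0 to 3 with an array left out. Its median was -0.020 without centring and 0.012 with cyclic loess. Apart from Fdft1, whose adjusted p was 0.093, and Mylip (fragments minus whole embryo, adjusted p = 0.074), the replicate block changed no call of a named member or of a named gene of the 2 further lists. Marker genes were not refitted.

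Some small differences changed sign, and the cause was not tested. In Ad minus Pp on MOE430A these were Srebf1 (0.0021), Mvk (0.029) and Mvd (0.0020) without centring, and Scap (0.056 without centring, 0.0082 with cyclic loess, 0.017 with no filter). With an array left out the ranges were -0.16 to 0.0078 for Acly, -0.052 to 0.081 for Fasn, -0.34 to 0.053 for Hmgcs1, -0.15 to 0.070 for Mvk, -0.084 to 0.060 for Scap and -0.16 to 0.027 for Srebf1. On MOE430B Insig1 was 0.013 without centring, and the ranges were -0.40 to 0.27 for Insig1, -0.25 to 0.085 for Acaca and -0.43 to 0.067 for Elovl6. In fragments minus whole embryo on MOE430A, Scap was -0.026 without centring, Srebf2 -0.089 as the mean of its probe sets, and Srebf1 ran between -0.053 and 0.040. On MOE430B Stard4 was -0.035 with cyclic loess and -0.017 with no filter, and ran between -0.034 and 0.049. With 2 arrays a fragment, differences of this size could not be told from 0.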
